A study of Mus musculus with 2 samples.

Results

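The Tlx, Lbx, Hmx and Barhl genes, together with Dbx1, are homeobox transcription factor genes of the developing nervous system, and their promoters were examined in a Ring1B ChIP-chip of mouse embryonic stem (ES) cells. The 10 members were chosen by name, as Tlx1, Tlx2, Tlx3, Lbx1, Hmx1, Hmx2, Hmx3, Barhl1, Barhl2 and Dbx1, by a rule that uses no measured value, although earlier results of these data were known when they were picked. Array probes carrying a member's name were collected, also where the name joins the member to a second gene, and Barhl2 was found under its older symbol E130309B19Rik. At least 3 probes were found for 9 of the 10 members, out of 16845 genes with that many probes. Hmx2 had 1 probe.

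In ChIP-chip, DNA recovered with an antibody from fixed chromatin is hybridised to an array of probes beside input DNA, the chromatin before the antibody. Here DNA immunoprecipitated (IP) with a monoclonal antibody to Ring1B was labelled with Cy5, and input DNA of the same kind of cells with Cy3. Both were amplified by linker-mediated PCR after formaldehyde fixation and sonication of the cells. The titles call the cells mouse ES cells, no genotype, strain or line is named, and the source names begin with the word Muscle. The 2 arrays are the 2 slides of one promoter set and have no probe in common, so each promoter was measured once, without a replicate, a dye swap or a mock immunoprecipitation.

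Every ratio below is the log2 of IP over input signal, minus the median probe of its slide, so that 0 is the median probe and 1 is 2-fold above it. Each gene is given as the mean of its probes ± the SD over those probes, which measures how the ratio varies along the promoter and not the error of a repeat. No test across samples was possible, and genes were read by size alone. Slide 1 carried 7 members and slide 2 carried Tlx1, Tlx3 and Lbx1. The slides gave 237054 and 237168 probes, with IP signal well above background at 77.2% and 80.6% of them and input signal at 74.1% and 76.3%. Both signals were at the floor value of the software at 1.68% of the 358 probes of the 9 members, against 16.9% of all other probes, and the median IP and input signals were 2142 and 984 at the members' probes, against 368 and 297 elsewhere.

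Ring1B is the catalytic subunit of Polycomb repressive complex 1, which adds ubiquitin to histone H2A and is known to sit on the silent promoters of developmental regulators in ES cells, mostly at CpG islands. The members are such regulators: they are largely silent in ES cells and are switched on later in particular neurons and sensory organs. Tlx3 and Lbx1 are known as opposing selectors in the dorsal spinal cord, where Tlx genes favour excitatory and Lbx1 favours inhibitory interneurons.

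Sequences of 3 kinds show what was measured. The first are array probes with the highest and the lowest ratio in Lbx1, Tlx3 and Tlx2, the members with the lowest probes of all, with each CG dinucleotide in capitals. Probes are given as the array file lists them, and the sources used here do not name the genome build of their coordinates.
Tlx3 highest, chr11:33153402-33153447, 2008 bp inside the gene: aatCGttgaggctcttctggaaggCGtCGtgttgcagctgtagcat
Tlx3 lowest, chr11:33160014-33160067, 4608 bp upstream: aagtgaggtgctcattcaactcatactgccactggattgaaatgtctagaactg
Lbx1 highest, chr19:45132571-45132630, 440 bp upstream: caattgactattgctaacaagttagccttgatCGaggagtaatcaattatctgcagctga
Lbx1 lowest, chr19:45136521-45136580, 4390 bp upstream: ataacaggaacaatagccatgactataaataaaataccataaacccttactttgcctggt
Tlx2 highest, chr6:83096139-83096183, 502 bp upstream: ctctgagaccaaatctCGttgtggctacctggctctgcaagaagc
Tlx2 lowest, chr6:83101236-83101280, 5599 bp upstream: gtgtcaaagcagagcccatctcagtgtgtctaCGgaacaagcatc
The highest of these, in Tlx3, had an IP signal of 20809 and an input signal of 887, a ratio of 4.39. The lowest, in Lbx1, had an IP signal of 161 and an input signal of 3361, a ratio of -4.54. Over the highest probe of each of the 9 members, the median IP signal was 12682 and the median input signal 701. Over the lowest probe of each, the median IP signal was 612 and the median input signal 3407. Probes were picked by the ratio of these signals, so the medians follow in part from the choice. The highest and the lowest probes had a median GC content of 44% and 43.6%, and a median of 1 and 0 CG dinucleotides, with at most 5 and 3.

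The second kind is the single probe named for Hmx2, shown because it is all that the array holds under that name. It lies 3845 bp upstream of the Hmx2 start, at the edge of the Hmx3 tile.
Hmx2 probe, chr7:127901616-127901675: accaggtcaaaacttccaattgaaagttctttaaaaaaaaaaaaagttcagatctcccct
Its IP signal was 2020 and its input signal 1036, a ratio of 0.73. One probe gives no mean and no spread, and Hmx2 is left out of every count of members below.

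The third kind is the promoter window of RefSeq, which spans the annotated start, on GRCm38.p6. Windows were matched by symbol for 8 of the 10 members. Barhl2, Hmx3 and Dbx1 are shown, with CG dinucleotides in capitals, because Barhl2 and Hmx3 hold the most CG among the members' windows, and Dbx1 has the highest mean ratio of the members.
Barhl2, chr5:106458117-106458416, minus strand: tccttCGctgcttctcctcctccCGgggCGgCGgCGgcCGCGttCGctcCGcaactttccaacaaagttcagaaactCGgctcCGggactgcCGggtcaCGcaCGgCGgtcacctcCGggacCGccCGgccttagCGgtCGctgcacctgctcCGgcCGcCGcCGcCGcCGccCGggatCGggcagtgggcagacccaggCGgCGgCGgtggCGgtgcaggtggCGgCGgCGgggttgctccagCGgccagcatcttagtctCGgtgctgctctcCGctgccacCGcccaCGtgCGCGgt
Hmx3, chr7:131542713-131543012, plus strand: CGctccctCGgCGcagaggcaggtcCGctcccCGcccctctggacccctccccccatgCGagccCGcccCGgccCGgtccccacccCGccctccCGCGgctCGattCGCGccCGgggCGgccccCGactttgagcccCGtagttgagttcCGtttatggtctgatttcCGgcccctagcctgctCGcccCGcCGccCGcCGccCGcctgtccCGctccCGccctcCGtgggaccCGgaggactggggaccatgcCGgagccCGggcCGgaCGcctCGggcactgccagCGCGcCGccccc
Dbx1, chr7:49636786-49637085, minus strand: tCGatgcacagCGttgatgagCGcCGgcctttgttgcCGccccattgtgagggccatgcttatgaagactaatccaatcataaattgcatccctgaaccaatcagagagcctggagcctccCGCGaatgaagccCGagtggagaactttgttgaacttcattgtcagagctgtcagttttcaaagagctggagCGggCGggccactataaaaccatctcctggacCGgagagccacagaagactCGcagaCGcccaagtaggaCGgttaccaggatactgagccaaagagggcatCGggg
The Barhl2 window holds 42 CG dinucleotides, the Hmx3 window 39 and the Dbx1 window 15, against a median of 7 over all 32851 RefSeq windows. As many CG as in Barhl2 are found in 3.03% of all windows, as many as in Hmx3 in 4.45%, and as many as in Dbx1 in 34.6%. Array probes whose letters lie inside these windows had ratios of -0.56 and 0.24 for Barhl2, -1.77 for Hmx3 and 2.87 for Dbx1. The Hmx1 window holds 38 CG, with a probe at 1.56. The Tlx3 window holds 18, with probes at 1.48 and 1.71, and the Tlx1 window 16, with a probe at 0.17. Barhl1 has windows of 9 and 14 CG, and the probe in the first had 2.02. Ratios above and below 1 thus occurred both in windows with many CG and in windows with fewer.

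Ring1B DNA was enriched over input at most of these tiles, which take in probes before and past the start. Before the start alone, means were 1.76 for Barhl2, 1.42 for Dbx1, 1.05 for Lbx1 and 0.95 for Hmx3. Hmx1 had 0.40 over only 3 such probes, and the other members at most 0.24. The counts that follow use all probes of a gene. The mean ratio reached 1 at 5 of the 9 measured members, namely Dbx1, Barhl2, Lbx1, Hmx3 and Hmx1, while 1.99% of all 16845 genes reached it. None of the 9 lay at or below -1, where 1.86% of all genes lay. The median of the members was 1.26, against -0.10 for all genes. The members ranked from 31st (Dbx1) to 7643rd (Barhl1) among all genes. Of the members' probes, 56.7% had a ratio of at least 1 and 10.3% one of at most -1, against 19.7% and 20.6% of all other probes.

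**Figure D1:**
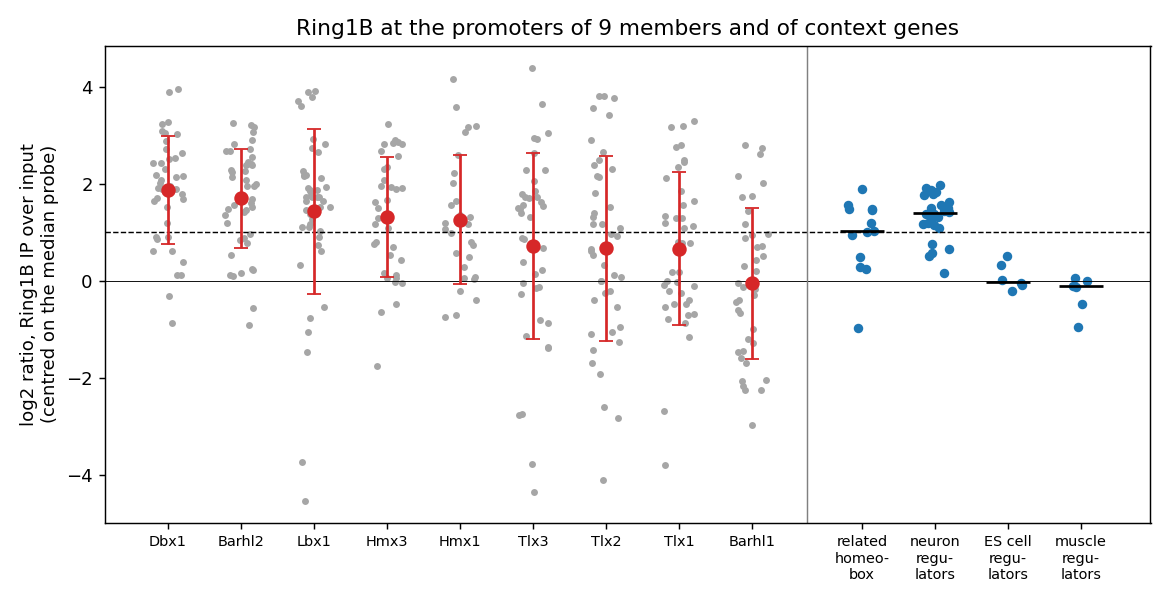
Log2 ratio of Ring1B IP over input at each probe (grey points) and its mean with SD over probes (red) for the 9 measured members, left, and the gene means of 4 context lists with their medians (blue points, black bars), right. The dashed line marks 1. Dbx1, Barhl2, Lbx1, Hmx3 and Hmx1 have means above it, the 3 Tlx genes lie between 0.66 and 0.71, and Barhl1 lies near 0.

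All 3 Tlx genes had higher ratios past the start than in the promoter, and each had a group of low probes upstream, at differing distances. Tlx3, a selector of excitatory dorsal horn and sensory neurons, averaged 0.71 ± 1.93 (SD over 41 probes, chr11:33153170-33161127), with 21 probes at or above 1 and 7 at or below -1. Past the start, up to a probe labelled downstream of the gene, the mean was 1.63 over 14 probes. In the promoter it was 0.24 over 27 probes. A run of 22 probes over 3713 bp, spanning the start, had a mean of 1.89. Between 4215 and 5102 bp upstream, 6 probes averaged -1.76. The gene's mean lay between these stretches, and its median probe, at 1.32, lay above 1.

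Tlx1, also called Hox11, is needed to form the spleen and is an oncogene of T cell leukaemia. It averaged 0.66 ± 1.58 (SD over 40 probes, chr19:45039225-45047018). Its highest ratios began 896 bp inside the gene, where 11 probes over 1548 bp averaged 2.14. The promoter, with 25 probes, averaged 0.01, and the 10 probes within 1000 bp of the start 0.49. The start of Tlx1 thus lay outside its enriched stretch. A second run of 4 probes with a mean of 1.72 lay between 4540 and 5210 bp upstream, and 3 probes with a mean of -2.42 lay between both stretches.

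Tlx2, which acts in enteric neurons, averaged 0.67 ± 1.90 (SD over 43 probes, chr6:83093246-83103763). Of its probes, 30 carry a joined name with Pcgf1, a neighbouring gene whose start lies 8164 bp away and which encodes a subunit of a variant Polycomb repressive complex 1. The Tlx2 tile, shared and unshared probes together, divided sharply. On the Tlx2 side, up to 2000 bp before its start, 24 probes averaged 1.91 ± 1.26, and 18 of them reached 1. These include the 13 probes that carry the name of Tlx2 alone, which averaged 1.79 ± 1.39. Farther away, 19 probes averaged -0.91 ± 1.32, and 1 of them reached 1. The enriched run covered 3387 bp around the Tlx2 start with a mean of 2.23. Within 1000 bp of the Pcgf1 start 13 probes averaged -0.40 ± 1.71, with a range from -2.84 to 3.67, and 2 of them reached 1.

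With normexp background correction, which treats dim signals differently, the Tlx means moved across the threshold to 1.04 for Tlx1, 1.07 for Tlx2 and 1.11 for Tlx3. The count of members at or above 1 was then 8 of 9, while 2.64% of all genes reached 1.

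Lbx1, the selector of inhibitory dorsal interneurons that also guides the migration of limb muscle precursors, averaged 1.43 ± 1.71 (SD over 45 probes, chr19:45129783-45137481). It had 35 probes at or above 1 and 4 at or below -1. Enrichment filled most of its tile, with one run of 3624 bp up to the start (mean 1.69, 20 probes). Another run of 1914 bp lay from 464 to 2377 bp past the start (mean 2.22, 14 probes). The far part of that run is labelled downstream of the gene. The low probes lay next to each other. The 4 probes from 4000 to 5000 bp upstream, which are all but the farthest of them and a higher probe, averaged -2.63. Lbx1 and Tlx1 are neighbours on chromosome 19, with starts 87585 bp apart. Tlx1 was 0.77 lower than Lbx1 on the log2 scale (0.66 against 1.43), and 1.01 lower within 1000 bp of the start, with no replicate to set these differences against. The tiles themselves lie 82765 bp apart.

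The Hmx genes act in the inner ear, the eye and cranial sensory neurons. Hmx3, needed with Hmx2 for the vestibular part of the ear, averaged 1.31 ± 1.23 (SD over 35 probes, chr7:127894209-127901532). Its ratio climbed along the tile, with a mean of 0.95 over 25 promoter probes and 2.21 over 10 probes inside the gene. It held 3 runs of 536, 1099 and 1546 bp, parted by low probes, and the last of them, of 9 probes, ends with the probe named for Hmx2. One of the low probes between the runs, 104 bp upstream of the start, was the member's lowest at -1.77, with an IP signal of 219 and an input signal of 636. Its letters occur in the Hmx3 window printed above.

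Hmx1, which acts in the outer ear, the eye and sensory ganglia, averaged 1.26 ± 1.33 (SD over 28 probes, chr5:34450914-34456311). A run of 19 probes over 3751 bp, starting 35 bp inside the gene, had a mean of 1.75. Hmx1 shares its promoter with E130018O15Rik, whose start lies 640 bp away. That gene averaged 1.14 ± 1.27 over 26 probes and had a run of 2774 bp with a mean of 1.69. The 3 probes that carry both names ranged from -0.39 to 1.56, with a mean of 0.40. The E130018O15Rik run takes in 2 of them, and the lowest, at -0.39, is the only one between that run and the run of Hmx1.

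The Barhl genes differed over the whole tile. Barhl2, which acts in amacrine cells of the retina and in commissural spinal neurons, averaged 1.69 ± 1.02 (SD over 47 probes, chr5:105632675-105640988). It had 35 probes at or above 1 and none at or below -1. Its enrichment reached both ends of the tile, in runs of 5495 bp upstream (mean 1.84) and 2522 bp from the start inward (mean 1.57). Barhl1, which keeps inner ear hair cells and cerebellar granule neurons alive, averaged -0.06 ± 1.55 (SD over 39 probes, chr2:28921326-28929252), with 9 probes at or above 1 and 13 at or below -1. A run of 7 probes over 1123 bp around the start averaged 1.22. It held 4 of the 9 probes at or above 1, and the other 5 lay outside it, among them the gene's highest, 2.80 at 370 bp inside the gene. Within 1000 bp of the start the means were closer, 1.14 ± 1.40 over 11 probes in Barhl1 and 1.496 ± 1.18 over 12 probes in Barhl2. In Barhl1, 7 probes between 2562 and 3624 bp upstream averaged -1.75. The median signals were 604 for IP and 669 for input at Barhl1, and 1766 for IP and 497 for input at Barhl2.

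Dbx1, which specifies ventral spinal interneurons and the brainstem neurons that set the breathing rhythm, had the highest mean of all members, 1.87 ± 1.11 (SD over 40 probes, chr7:45855079-45862848), or 3.66-fold above the median probe. Of its probes, 30 reached 1 and none lay at or below -1. Its run of 5819 bp, with 30 probes and a mean of 2.29, was the longest among the members. Inside the gene 15 probes averaged 2.62 ± 0.65, against 1.42 ± 1.09 over 25 promoter probes. The median IP signal was 3729 and the median input signal 723.

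**Figure D2:**
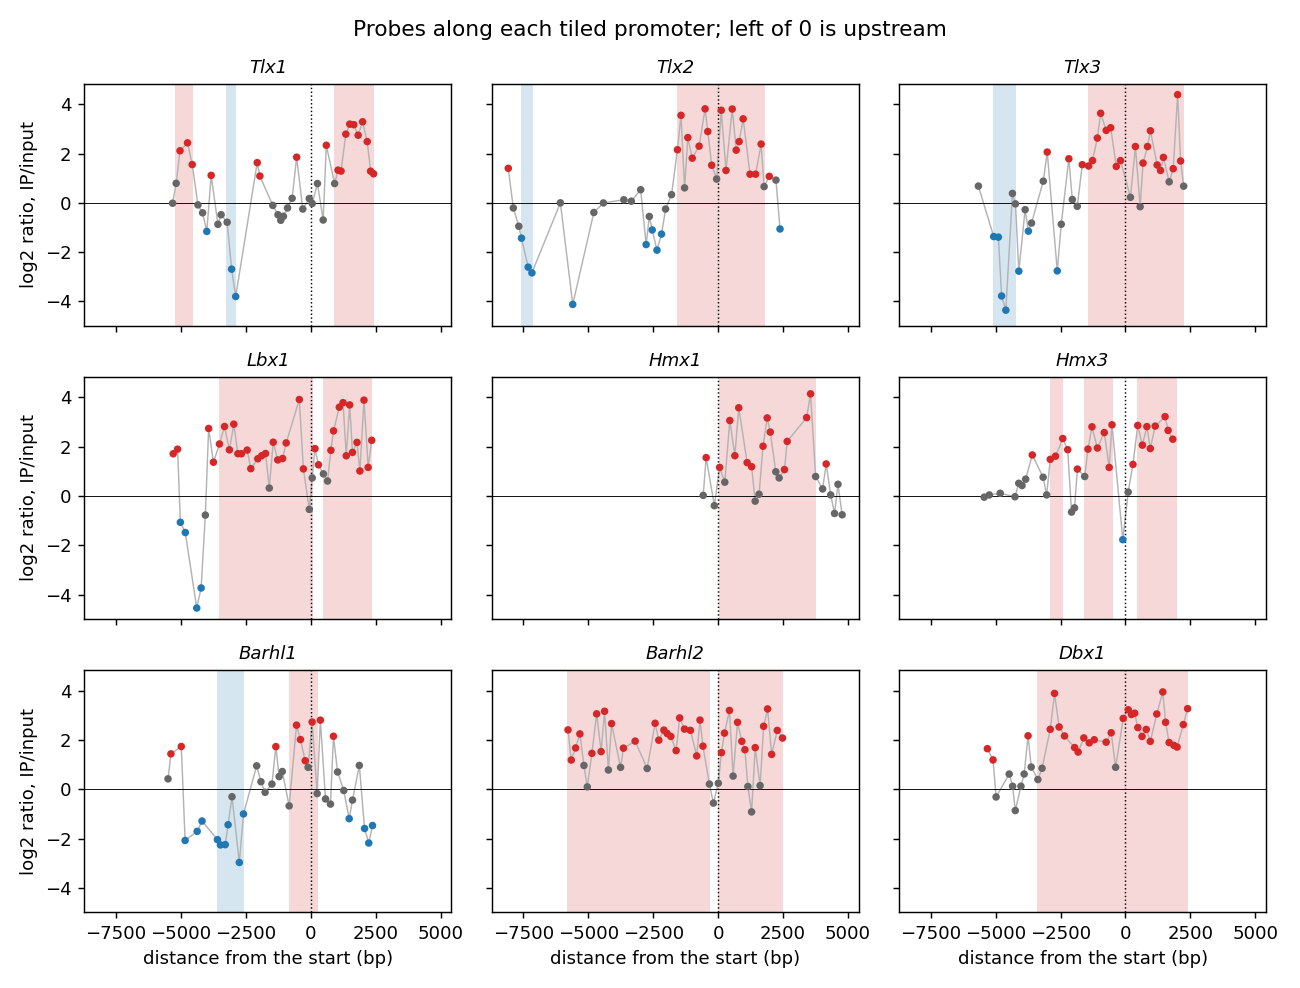
Log2 ratio of IP over input at each probe against distance from the gene start (bp, upstream to the left of the dotted line) for the 9 measured members. Red points are at or above 1 and blue points at or below -1, and shading marks runs past 1 (red) or -1 (blue) by the running mean of 3 or more probes. Barhl2 and Dbx1 are shaded red over most of the tile, and the Tlx genes, Lbx1 and Barhl1 have a group of low probes upstream.

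Long enriched regions were common among the members. A region was a run of 3 or more probes at which the ratio, averaged with all probes up to 500 bp to either side, reached 1, and it counted as long from 2000 bp. Such a region lay at 6 of the 9 members (Tlx2, Tlx3, Lbx1, Hmx1, Barhl2 and Dbx1), against 3.01% of all genes. With the sign turned, 0 of the 9 members and 0.932% of all genes had one. Tlx1, Hmx3 and Barhl1 had only shorter ones. At a running mean of 1.5, 3 members and 1.17% of all genes had a long region.

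The members' ratios were high on both sides of the start. Averaged over members, the ratio was 1.41 in the 1000 bp before the start and 1.75 in the 1000 bp after it, against 0.03 and 0.05 for all other genes. From 1000 to 2000 bp past the start it was 1.72, against -0.08 for other genes, and from 2000 to 3000 bp 1.37 over 8 members, against -0.16. Past 3000 bp only Hmx1 has probes, with 2.71 up to 4000 bp and 0.11 beyond. The tiles thus do not show how far the enrichment reaches past the start in most members. From 4000 to 5000 bp upstream the members averaged -0.37 (8 members), with a range from -2.63 in Lbx1 to 2.11 in Barhl2, against -0.18 for other genes. Restricted to probes within 1000 bp of the start, 8 of the 9 members had a mean of at least 1, Tlx1 being the exception, against 8.09% of all genes.

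Close to the start the ratio was lower than beside it at most members, and also at most other genes past 1. Within 250 bp of the start the members averaged 0.94, and between 250 and 1000 bp they averaged 1.81. The inner value was the lower one at 7 of the 9 members, with Hmx3 at -0.81 inside and 2.20 outside, Hmx1 at 0.39 and 1.74, and Tlx3 at 0.97 and 2.23. Dbx1 ran the other way, with 3.04 inside and 2.15 outside, and Barhl1 had 1.15 and 1.13. Among the 296 other genes with a mean of at least 1 and probes in both windows, the inner value was lower at 62.2%, and among all other genes at 51.7%. The inner window holds only 2 to 4 probes per member, and these windows were chosen after the profiles had been seen. Distances here count from the start as placed by the array annotation. At Hmx1, Tlx3 and Barhl1 that start lies outside the RefSeq window in which array probes were found. The probes in those RefSeq windows all lie upstream of the array's start. Whether the ratio is also lower close to the RefSeq starts of these members was not tested.

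**Figure D3:**
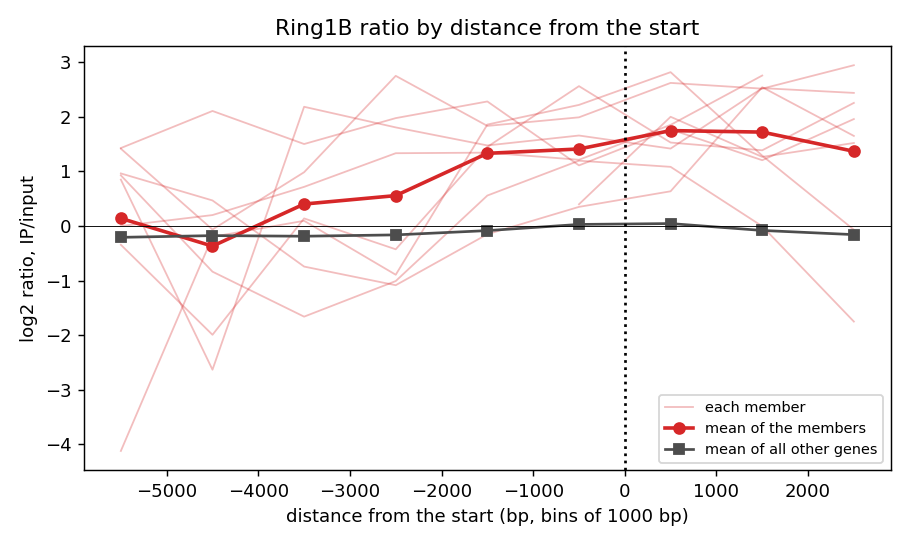
Mean log2 ratio of IP over input in bins of 1000 bp by distance from the start, for the members (red, thin lines for each member) and for all other genes (grey). The mean of the members is 1.41 and 1.75 in the bins beside the start, where other genes stand at 0.03 and 0.05, and the members spread most widely far upstream.

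Genes close to a member were read from the same arrays. Among the 21 other genes with probes within 100000 bp of a member's probes, 1 reached 1, E130018O15Rik at the Hmx1 promoter, and 1.99% of all genes did. These neighbours belong mostly to 1 locus, as 14 of them lie beside Tlx2, Pcgf1 with its shared tile included, and Lbx1, Hmx3, Barhl2 and Dbx1 have none. The 14 had a median of -0.05 and a range from -1.55 in M1ap to 0.49 in Lbx2. Lbx2, a relative of Lbx1 whose tile lies 2504 bp from that of Tlx2, averaged 0.49 ± 1.12 over 36 probes. Beside Tlx1, Kazald1 averaged 0.40 and Sfxn3 0.31. Beside Tlx3, the growth factor gene Fgf18 averaged 0.43 and the nucleolar gene Npm1 0.39. Beside Barhl1, Ddx31 averaged -0.10 and Gtf3c4 0.07.

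Other genes of the same classes and circuits had like values. Of 13 measured homeobox genes related to the members, 8 reached 1, with a median of 1.03. Msx1 (1.89), Vax1 (1.56) and Barx1 (1.47) were highest, and Noto (-0.98), Nkx1-2 (0.24) and Hhex (0.27) lowest. Of 26 measured regulators that act beside the members in spinal, hindbrain and inner ear neurons, 21 reached 1, with a median of 1.40. Lhx9 (1.97), Lhx2 (1.90) and Lmx1b (1.87) were highest, and Phox2a (0.16), Nkx6-2 (0.51) and Pou4f3 (0.56) lowest. Of 6 ES cell regulators 0 reached 1 (from -0.21 in Pou5f1 to 0.50 in Zfp42), and of 6 muscle genes 0 did (from -0.95 in Ckm to 0.05 in Myf5). Over all genes 1.99% reached 1, so that 0 of 6 lies near the share of any genes. The arrays hold DNA and not RNA, so these values do not show which cell type was used.

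The members' probes held more CG dinucleotides than other probes, 2.59 against 1.41 per 100 bases, and a higher GC content, 46.8% against 42.1%. Of the 147 members' probes without any CG, 41.5% reached 1 and 18.4% lay at or below -1, with a mean of 0.47. Of other probes without CG, 16.9% reached 1 and 21.7% lay at or below -1, with a mean of -0.17. With 1 CG the shares were 63% and 22%, with 2 or 3 CG 75.6% and 27.2%, and with 4 or more 60.6% and 21.9%. Across the 358 members' probes, Pearson's r between ratio and CG per base was 0.19, against 0.09 across all other probes. These probes share tiles and arrays and are not independent, and the part of CG content in the members' ratios was not tested.

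**Figure D4:**
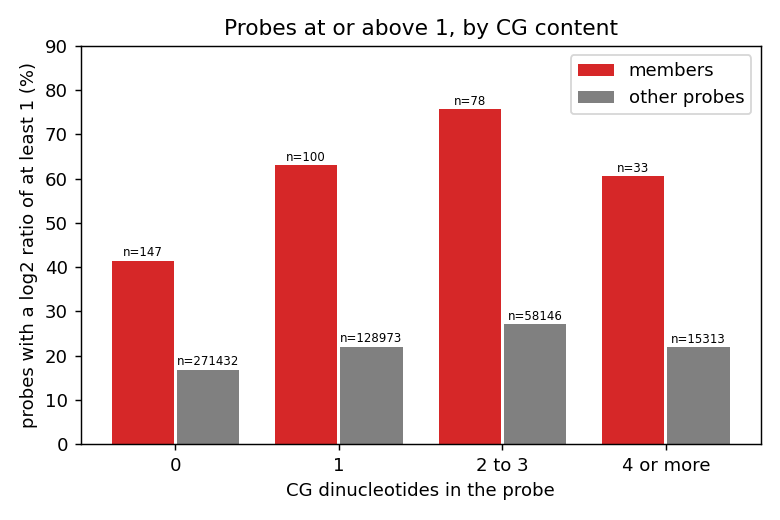
Share of probes with a log2 ratio of at least 1 (%), by the number of CG dinucleotides in the probe, for the members (red) and for all other probes (grey), with the number of probes above each bar. The members' share is higher in every class, from 41.5% against 16.9% without CG to 75.6% against 27.2% with 2 or 3 CG.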

How the data were processed

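The deposited array files hold spot intensity values, which per the file headers came from Agilent Feature Extraction version 9.1.3.1 as processed signals after background subtraction and dye normalization, with dim spots at a floor value. The deposited series table holds log2 ratios of the mean signals (red over green), as checked against the array files. The ratio used was log2 of processed Cy5 over Cy3 signal, minus the slide's median probe (0.23 on slide 1 and 0.16 on slide 2). Control spots and 141 and 17 outlier probes were left out. Genes needed at least 3 probes. Distances to the start were given for slide 1. On slide 2 the start was the boundary between promoter and inside probes, which differed from the listed start by 51.5 bp (median of 7855 genes of slide 1). The design called for no test, as each promoter is on 1 array.

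All 10 members were named, with the 3 highest and 3 lowest genes of both context lists and the ends of the range of the ES cell and muscle lists. Neighbours within 100000 bp are named, except that beside Tlx2 only Pcgf1 and the ends of the range are. The members and lists were chosen with earlier results of these data known. Alternatives were normexp (offset 50) and loess (limma 3.58.1 in R 4.3.3), no centring, the series table, dim probes left out, GC correction, the median of probes, the window of 1000 bp around the start, joined names left out, and other thresholds and region settings. The remaining steps used Python 3.11.15 with pandas 2.3.3 and numpy 2.4.6 and were tested on simulated data. Sequences came from the array files and RefSeq (GRCm38.p6).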

Additional observations from a re-analysis of the deposited data

How the results depend on the processing

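Of 140 recomputed values, 18 moved: 10 gene means crossed 1, and 8 counts changed by over 1.5 times. Each mean passed 1 by less than the SD over all probes of its gene, which is a spread along the tile. For Tlx2 within 1000 bp of the start, the SD over those probes alone was smaller, 1.02, and the mean passed 1 by more than that. No value changed sign where past 1. No replicate could be left out and no paired analysis was possible because each promoter was on 1 array. The difference between Hmx2 and Hmx3 was not computed, since Hmx2 had 1 probe. Normexp gave 1.04 for Tlx1, 1.07 for Tlx2 and 1.11 for Tlx3, with 8 members at or above 1. The series table gave 1.03 for Tlx2 and 1.08 for Tlx3, and the median of probes 1.32 for Tlx3. Within 1000 bp of the start, Tlx2 had 2.52, Tlx3 2.00 and Barhl1 1.14, with 8 members and 1267 genes at or above 1. Without joined names Tlx2 had 1.79. At a 1.5-fold threshold 8 members and 962 genes passed, and at a log2 ratio of 1.5, 2 members and 110 genes. At a running mean of 1.5, 3 members had a long region. Of all genes past 1 in either direction, 51.8% lay above. That share was 87.8% with normexp, 89.2% with the series table, 80% without centring, 62.2% with GC correction, 39.3% without floor probes and 23.6% without probes dim in input. The median of all genes was -0.10, and it was 0.01 with normexp or the series table, 0.10 without centring and -0.28 without dim input probes. The cause of these moves was not tested. Means of Lbx1, Hmx1, Hmx3, Barhl2 and Dbx1 stayed at or above 1.12 under every alternative run. With no repeat array, the SD over probes is the only spread that can be given, and it is not the error of a repeat.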

Other observations

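Very low ratios lay beside high ones in the same tiles. Among the members' 358 probes, 33 had a ratio of at least 3 (9.22%, against 1.16% of all other probes) and 6 a ratio of at most -3 (1.68%, against 3.24%). The lowest probes of Lbx1 (-4.54), Tlx3 (-4.35), Tlx2 (-4.12) and Tlx1 (-3.80) were bright in the input channel, with input signals of 3361, 7812, 9345 and 7620, and lay between 2890 and 5599 bp upstream of the start. As these probes were picked for the lowest ratio, a bright input follows in part from the choice. The cause of the low ratios was not tested.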
